A study of Mus musculus with 3 samples.

Results

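The probes described here are those of genes with a value on exactly 2 of 3 arrays that compared ureteric tree cells with the other cells of the embryonic mouse kidney, and with both log2 ratios above 0.41, a 1.33-fold difference. They were 54 of 1022 gene probes measured on exactly 2 arrays (5.28%) and of 21819 gene probes in all. Members were chosen by these 2 ratios, which are therefore given as a description and carry no test. Of the 54 probes, 51 had 1 gene symbol in the platform annotation, for 51 different genes, and 3 had none. Arrays 2 and 3 supplied 44 members, arrays 1 and 3 supplied 7, and arrays 1 and 2 supplied 3.

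Each array held RNA of GFP+ cells against RNA of GFP- cells, both sorted by flow cytometry from kidneys of HoxB7-GFP transgenic mice at 15.5 days post coitum (dpc), sexes pooled. In this transgene the Hoxb7 promoter drives green fluorescent protein in the ureteric tree, so both fractions carry the same allele, and GFP- cells are all remaining kidney cells rather than 1 cell type. The 3 arrays form 1 group, with no dye swap and no common reference per the labels, and nothing in the labels says whether they came from separate pools of embryos. The value of a probe is the log2 ratio of GFP+ over GFP-; this direction is likely, from the order of the channels and the wording of the labels, because the dye of each channel is not stated.

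The ureteric tree is the branching epithelium that grows from the ureteric bud and later forms the collecting ducts and the lining of the ureter. Its cells are polarised and joined by cadherin and tight junctions, they rest on a laminin-rich basement membrane, and signals from the surrounding mesenchyme acting through receptor tyrosine kinases keep the tips growing and branching. The rest of the kidney at this stage holds nephron progenitors, early nephrons, stroma, vessels and blood-derived cells. In such bulk comparisons, fewer cells of a type and less RNA per cell cannot be told apart.

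Arrays 1, 2 and 3 gave values for 5179, 4980 and 6187 gene probes, and 4399 had a value on all 3. Array 1 stood apart from the other two. Over all gene probes with both values, Pearson's r was 0.88 between arrays 2 and 3, 0.22 between arrays 1 and 3 and 0.079 between arrays 1 and 2. Of 9 listed genes of the ureteric epithelium with 3 values, 6 had positive ratios on all 3 arrays (Gata3, Krt8, Spint2, Prss8, Kcnk1 and Gata2), Gata3 for example with 2.78, 2.00 and 2.28. The other 3 had mixed signs and means just below 0, Grhl2 with -0.37, -0.27 and 0.12, Bcat1 with -0.34, -0.080 and 0.011, and Rab25 with -0.35, 0.057 and 0.17.

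Among members that sit at the cell surface, Cdh16 stood first. Cdh16 encodes Ksp-cadherin, an adhesion protein of kidney epithelium. Its ratio was 2.55 on array 1 and 3.19 on array 2, a mean of 2.87 ± 0.45 (SD, n = 2 arrays) or 7.31-fold. Both values were far above the threshold, and array 3 gave no value. Adgrg6, an adhesion G protein-coupled receptor needed for myelination by Schwann cells, had 2.08 on array 2 and 1.77 on array 3. Bcam, a receptor for laminin, had 1.08 and 1.11 on the same arrays, and its 2 ratios differed by only 0.025. Sema4a, a membrane-bound semaphorin, had 1.19 and 0.98. Semaphorins signal through plexins on neighbouring cells. Adam22, a membrane protein of the ADAM family that lacks protease activity, had 0.98 and 0.81. Parm1, a mucin-like membrane protein, had 0.86 and 0.58. Cadm1, an adhesion protein of the immunoglobulin superfamily, had 0.73 and 0.54. The median of the 7 surface members' means was 1.09, against 1.14 for the members of signalling and calcium binding and 0.83 over all 54 members. Role groups were formed after the values were seen, so these medians only describe them.

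Transport proteins made up 4 members. Slc35f2 belongs to a solute carrier family that holds the nucleotide sugar transporters. It had 2.57 on array 2 and 1.95 on array 3, a mean of 2.26 ± 0.43 (SD, n = 2 arrays) or 4.78-fold, with the widest gap of any member of that pair of arrays (0.61). Slc8a1, the sodium-calcium exchanger of the plasma membrane, had 0.66 on array 1 and 1.27 on array 2. Slc22a23, of the organic ion transporter family, had 0.67 and 0.58 on arrays 2 and 3. Lrrc8d, a subunit of volume-regulated anion channels, lay just inside the threshold with 0.55 and 0.42.

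Members with roles in intracellular signalling and calcium binding numbered 6. Bex2, a small protein of the brain-expressed X-linked family, had 1.51 on array 1 and 2.22 on array 2, a mean of 1.86 ± 0.50 (SD, n = 2 arrays). Irs2, an adaptor that carries signals from the insulin and insulin-like growth factor receptors, had 1.33 and 1.28 on arrays 2 and 3, a mean of 1.31 ± 0.039 or 2.47-fold. Rap1gap, which switches off the small GTPase Rap1, had 1.22 and 1.29. These last genes varied little between the arrays that measured them. Pde4dip, also called myomegalin, is a scaffold of the Golgi and centrosome and had 1.07 and 1.00. S100a1, an EF-hand calcium-binding protein, had 0.86 and 1.01. Anxa11, an annexin that binds membranes in the presence of calcium, had 0.44 and 0.50, near the bottom of the members.

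Genes of transcription and chromatin numbered 7, and their ratios were small, with a median mean of 0.57. Hoxd8, a homeobox gene, was the highest of them, with 0.70 on array 1 and 1.43 on array 3. Zfp612, which encodes a zinc finger protein, had 0.93 and 0.80 on arrays 2 and 3. Eaf2, a partner of the ELL transcription elongation factors, had 0.99 and 0.70. The remaining 4 had means between 0.48 and 0.57. Cic, the repressor Capicua, whose activity is lowered by receptor tyrosine kinase signalling, had 0.413 on array 1, the value closest above the threshold of any member, and 0.73 on array 3. Smc6, a subunit of the SMC5/6 complex of DNA repair, had 0.64 and 0.44 on arrays 2 and 3, Mcrip2 had 0.44 and 0.61, and the Sp-family zinc finger factor Sp4 had 0.54 and 0.42.

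RNA-processing and noncoding members numbered 7. Esrp1 directs the epithelial pattern of alternative splicing, and its ratio was 2.98 on array 2 and 3.11 on array 3, a mean of 3.04 ± 0.088 (SD, n = 2 arrays) or 8.25-fold. The other 6 had means of at most 1.07. The long noncoding RNA 5033430I15Rik had 1.00 and 1.15. Scnm1, a splicing factor of the minor spliceosome, had 0.86 and 0.87, the smallest gap among all 54 members (0.0063). Nrde2, a nuclear protein of RNA processing, had 0.58 and 0.68, and the long noncoding RNA 0610009L18Rik had 0.55 and 0.58. Knop1, a lysine-rich nucleolar protein, had 0.57 and 0.44. The probe that the platform names after the small nucleolar RNA Snord123 had the lowest mean of all members, with 0.46 and 0.47.

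Rprm had the highest ratio of all members. It encodes Reprimo, a protein induced by p53 that holds cells in the second gap phase of the cell cycle. It had 3.55 on array 2 and 3.58 on array 3, a mean of 3.56 ± 0.020 (SD, n = 2 arrays) or 11.8-fold. The largest mean of any 3-array probe that passed the test described further on was 2.89 (Kcnk1), which includes array 1. On arrays 2 and 3 Kcnk1 had 3.17 and 3.12. Map9, a microtubule-associated protein of the mitotic spindle, had 1.00 and 0.62, and the septin Septin14 had 0.62 and 0.55.

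Metabolic and mitochondrial members numbered 4, and only Adh1 was far from the threshold. Adh1, an alcohol dehydrogenase that also oxidises retinol, had 2.19 on array 2 and 1.90 on array 3, a mean of 2.04 ± 0.21 (SD, n = 2 arrays) or 4.12-fold. Ndufaf6, an assembly factor of respiratory complex I, had 0.53 and 0.50. The mitochondrial nuclease Endog had 0.41 and 0.57, and Cmpk1, a kinase that makes pyrimidine nucleoside diphosphates, had 0.55 and 0.42.

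Among 6 members of membrane traffic, autophagy and protein turnover, Dop1b, a protein of membrane traffic, had 1.24 and 1.26 on arrays 2 and 3, and Trp53inp2, a regulator of autophagy, had 1.05 and 1.02. Both had nearly equal ratios on the arrays that measured them. The other 4 had means of at most 0.59. They were the sorting nexin Snx24 (0.74 and 0.44), the BTB-kelch protein Kbtbd3 (0.69 and 0.44) and the endosomal protein Mon1b (0.49 and 0.46) on arrays 2 and 3. Ube2o, a ubiquitin-conjugating enzyme, had 0.48 on array 1 and 0.60 on array 3.

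Spp2, a secreted phosphoprotein first found in bone, had 0.88 and 0.59 on arrays 2 and 3. Sprr2g belongs to the small proline-rich proteins of the cornified envelope, is listed by RefSeq as a transcribed pseudogene, and had 1.01 on array 1 and 0.91 on array 3. No role was assigned to 8 members, which included the 3 unnamed probes. Of these 8, an unnamed probe was highest, with 2.09 on array 1 and 1.85 on array 3, followed by 0610040J01Rik with 1.73 and 1.56 on arrays 2 and 3. Another unnamed probe had the widest gap of all members, 1.34 on array 1 and 0.46 on array 3. The last unnamed probe, A030007L17Rik, 2610002M06Rik, 2410022M11Rik and Rwdd2b, an RWD-domain protein, had means between 0.58 and 0.96.

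**Figure D1:**
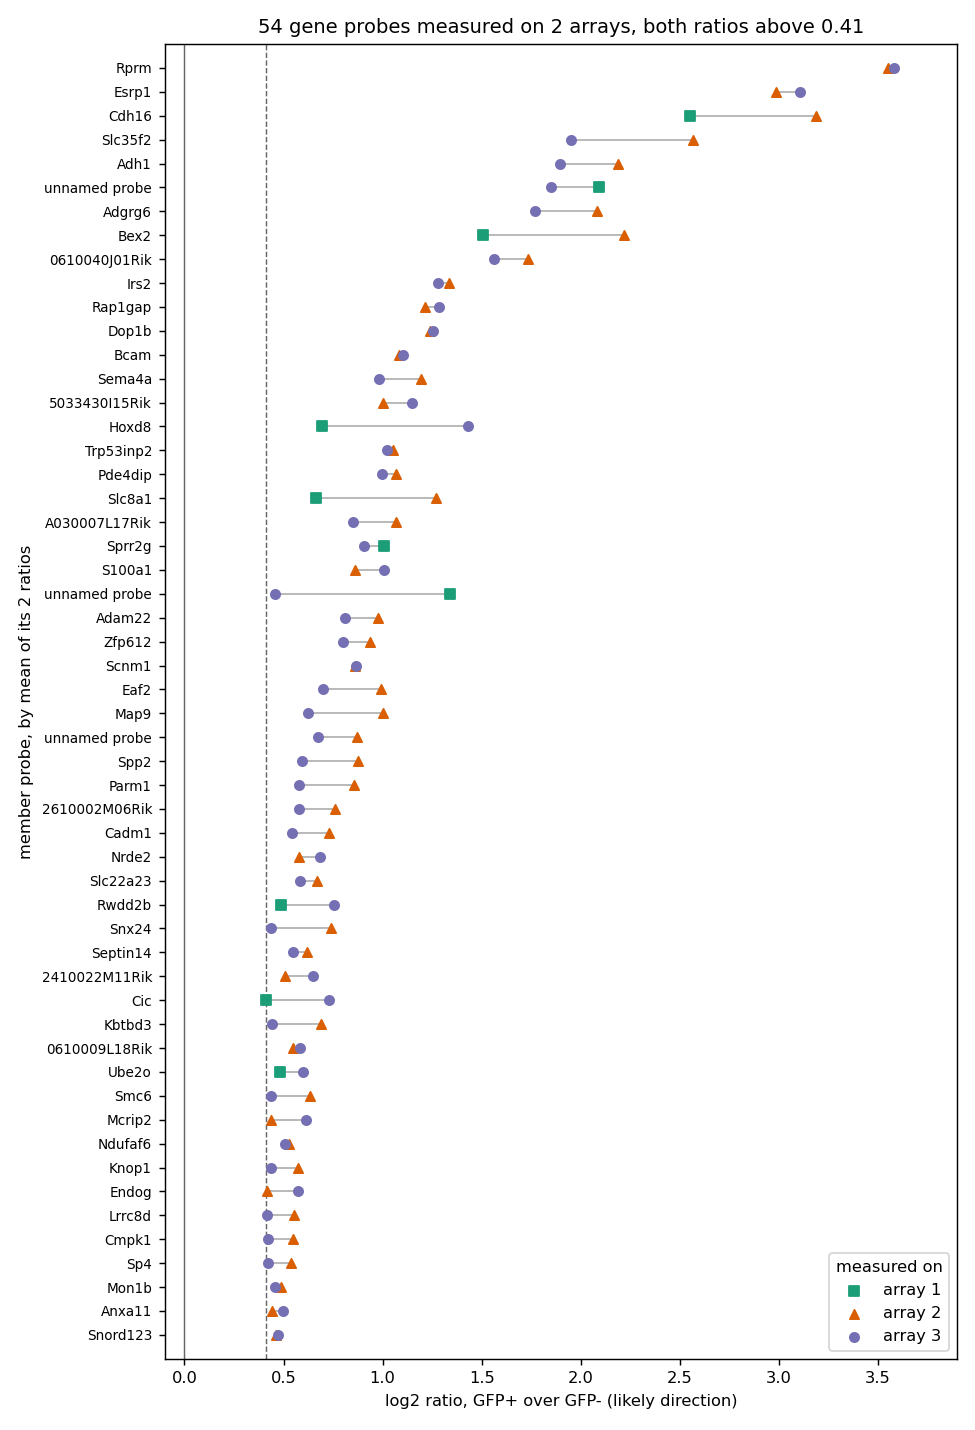
Log2 ratio (GFP+ over GFP-, likely direction, x axis) of each of the 54 member probes (y axis, ordered by mean) on the 2 arrays that measured it, with a square for array 1, a triangle for array 2 and a circle for array 3, and a grey line joining the pair. The dashed line marks the threshold of 0.41. A few members (Rprm, Esrp1, Cdh16, Slc35f2 and Adh1) had means above 2, and 36 of 54 lay between the threshold and 1.

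By size, 5 members had a mean above 2, 13 between 1 and 2, and 36 between 0.41 and 1. Both ratios exceeded 1 for 15 of the 54. Just inside the threshold, by the lower of the 2 ratios, were Cic (0.413), Endog (0.415), Lrrc8d (0.416), Cmpk1 (0.421) and Sp4 (0.423). Just outside were D730003I15Rik (0.379), an unnamed probe (0.373), Scg5 (0.372), Grtp1 (0.371) and 8430429K09Rik (0.368). There was thus no wide gap at the threshold. With each array first centred on its median (-0.044, 0.094 and 0.062 on arrays 1, 2 and 3), 41 of the 54 stayed above it and 1 other probe entered. The 13 members that dropped below it were Snx24, Smc6, Kbtbd3, Mcrip2, Lrrc8d, Mon1b, Cmpk1, Snord123, Sp4, Anxa11, Endog, Knop1 and 1 unnamed probe, and their centred ratios stayed positive.

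Several members belong to gene families with other measured members, which the rule did not use. The families were taken from the members' own names, so only values and the test over all 4399 probes are given. That test was limma on the mean of 3 arrays against 0, two-sided, with Benjamini-Hochberg adjustment; at an adjusted p below 0.05 it called 58 probes higher (1.32%) and 68 lower (1.55%). In either direction this was 126 probes (2.86%). These counts rest on the arrays and on the statistic: they were 1225 and 810 without array 1, 53 and 82 without array 2, 23 and 60 without array 3, and 1 and 0 with an ordinary one-sample statistic (319 and 213 at an unadjusted p below 0.05). Of 36 probes of genes in the marker lists and families that passed limma, 36 also passed without array 1, 34 without array 2, 31 without array 3 and 0 with the ordinary statistic after adjustment. Hoxb3 and Hoxa5 lost their call without array 2 (adjusted p = 0.0701 and 0.0811) and without array 3 (0.327 and 0.441), and Sprr2i (0.194), Spry1 (0.349) and the stromal collagen gene Col5a2 (0.250) lost it without array 3. A limma p-value here sets the mean ratio against the spread between arrays, with variance shared between probes. The only spread it measures is that between arrays, which can be technical.

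Bex1, the closest relative of Bex2, rose in GFP+ cells, with 1.48, 2.19 and 2.12 on arrays 1, 2 and 3 (limma adjusted p = 0.00842). Bex2 had 1.51 and 2.22 on arrays 1 and 2, so the values of these genes nearly coincided on both arrays they share. Their sequences are alike, and whether signal was shared between their probes was not tested. Another family gene, Bex3, had -0.035, 0.62 and 0.70 at one probe and -0.053, 0.85 and 0.75 at the other and did not pass. Tceal8 and Tceal9, of a related family, had means of -0.16 and 0.23 and did not pass.

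Of the small proline-rich genes, Sprr2i rose (0.84, 1.33 and 1.33; limma adjusted p = 0.0289), and 5 others measured on all 3 arrays did not pass, with means between 0.12 and 0.69. Sprr2g (1.01 and 0.91) lay below Sprr2i on array 3 and above it on array 1. Of the S100 genes, S100g rose (2.09 ± 0.021, SD, n = 3 arrays) and S100a9, a gene of neutrophils and monocytes, fell (-3.66 ± 0.44), both at a limma adjusted p of 0.00298. S100a6, with 0.55, 1.13 and 1.06, had values on arrays 2 and 3 close to those of S100a1 and missed the threshold (limma adjusted p = 0.0703). S100a13, which neighbours S100a1 in the RefSeq gene order, had -0.75, 0.0086 and -0.0014.

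In the Hoxd cluster, ratios ran in both directions. Hoxd4 rose (1.03, 1.58 and 1.51; limma adjusted p = 0.0196), Hoxd8 had 0.70 and 1.43 on arrays 1 and 3, and Hoxd10 had -1.50 and -1.37 on arrays 2 and 3. Hoxd11 had -0.38 on array 1 alone. Hoxd8 is a member, so the rule itself fixed its ratios as positive. Apart from it, Hoxd4 was positive on all 3 arrays, and Hoxd10 and Hoxd11 were negative where measured. Hoxc4, a gene of low Hox number in another cluster, had -0.68, -2.51 and -2.04 on arrays 1, 2 and 3 (limma adjusted p = 0.0703). Across the other clusters, Hoxb3 rose (0.94 ± 0.092, SD, n = 3 arrays; limma adjusted p = 0.0375) and Hoxa5 fell (-0.996 ± 0.24; adjusted p = 0.0419), of 10 Hox probes measured on all 3 arrays.

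**Figure D2:**
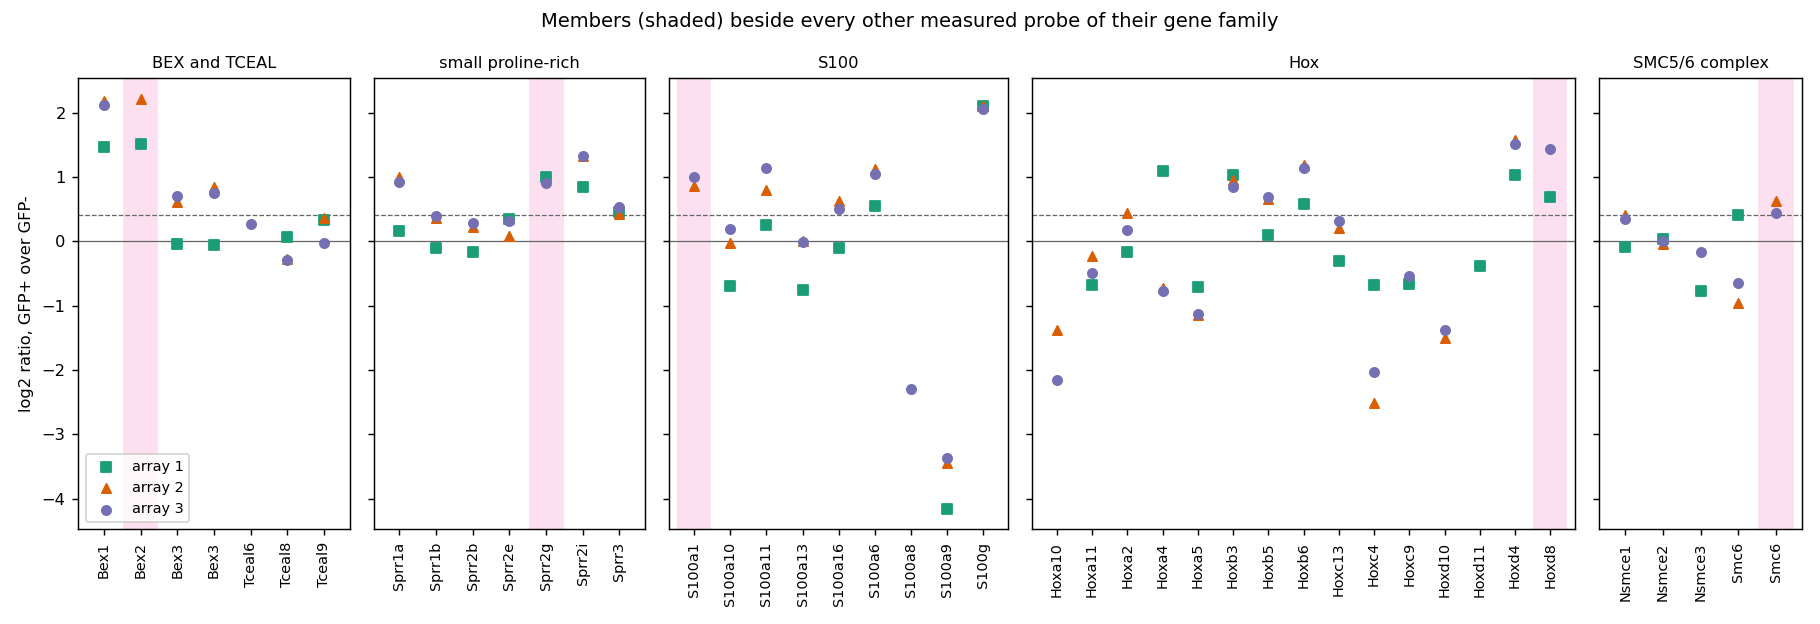
Log2 ratio (GFP+ over GFP-, y axis) of every measured probe of 5 gene families (x axis), by array, with members shaded. Bex2 sat at the level of Bex1, Hoxd8 lay between the negative Hoxd10 and the positive Hoxd4, and the Smc6 member was positive on arrays 2 and 3, where the other Smc6 probe was negative.

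Relatives of other members had ratios of either sign, and among those named next only Adgra2 passed. Adh7 (0.36 ± 0.11, SD, n = 3 arrays) and Adh5 (-0.11 ± 0.38) did not pass beside Adh1, and among retinoid enzymes Aldh1a3, which makes retinoic acid, had 0.92, 0.49 and 0.65 and missed the threshold (limma adjusted p = 0.129). Of the other SLC35 genes, 4 were measured on all 3 arrays, with means between -0.16 and 0.25, and 0 passed. Adgra2, another adhesion G protein-coupled receptor, fell (-1.41 ± 0.48, n = 3 arrays; limma adjusted p = 0.0321). Cdh5, the cadherin of endothelium, had -2.08 and -1.28 on arrays 2 and 3, and Cdh6 and Cdh11 had means of -0.022 and -0.33. Septin12, also measured on arrays 2 and 3 only, had -1.61 and -1.64, opposite in sign to Septin14. Laminin chains, none of them a member, also ran in both directions, and none passed. Lama1, of epithelial basement membranes, had 1.37, 0.75 and 0.87 (limma adjusted p = 0.0558). Lamb1 had a mean of 0.50 (adjusted p = 0.270) and Lama4 a mean of -0.78 (adjusted p = 0.129).

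Neighbours in gene order were also looked up. Of 50 probes measured on all 3 arrays that lie within 3 genes of a member, 2 rose and 0 fell by limma. Over all 4399 probes, 1.32% rose and 1.55% fell. Of the 50, 32 had a positive mean, with a median of 0.11 against 0.044 over all probes. Those that rose were Hoxd4 and Sprr2i, both already described as relatives of members. Slc15a2, a peptide transporter next to Eaf2, had 0.64, 1.42 and 1.16, and Mettl26, next to Mcrip2, had 0.36, 1.07 and 0.90; neither passed.

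Promoter sequences were examined for short motifs of factor families known from kidney epithelium. RefSeq sequences of GRCm38.p6 matched 37 of the 51 named members, and the 250 bases before the first listed start of each gene were searched on both strands. The motifs were AGATAA for GATA factors, AACNNGTT for grainyhead-like factors, GCCNNNGGC for AP-2 and GTTAAT for HNF1. The window of highest mean ratio is shown with that of the strongest member holding each motif. They are Rprm (chr2:54085553-54085802, minus strand), which holds none of them, Adh1 (chr3:138277335-138277584, plus strand; GATA), Mcrip2 (chr17:25868740-25868989, minus strand; grainyhead-like), Rap1gap (chr4:137664476-137664725, plus strand; AP-2) and Hoxd8 (chr2:74704365-74704614, plus strand; HNF1). Capitals mark the motif match, and each sequence runs 5′ to 3′ on the gene's strand.
Rprm: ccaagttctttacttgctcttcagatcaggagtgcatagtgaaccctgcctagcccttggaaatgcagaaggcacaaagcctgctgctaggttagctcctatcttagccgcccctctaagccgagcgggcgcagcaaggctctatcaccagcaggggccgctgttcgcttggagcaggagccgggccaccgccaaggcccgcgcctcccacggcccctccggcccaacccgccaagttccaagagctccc
Adh1: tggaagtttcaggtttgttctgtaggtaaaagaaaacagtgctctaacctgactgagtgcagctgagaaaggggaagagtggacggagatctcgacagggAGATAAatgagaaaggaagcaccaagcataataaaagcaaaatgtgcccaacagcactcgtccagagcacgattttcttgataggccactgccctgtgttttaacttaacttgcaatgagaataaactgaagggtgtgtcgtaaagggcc
Mcrip2: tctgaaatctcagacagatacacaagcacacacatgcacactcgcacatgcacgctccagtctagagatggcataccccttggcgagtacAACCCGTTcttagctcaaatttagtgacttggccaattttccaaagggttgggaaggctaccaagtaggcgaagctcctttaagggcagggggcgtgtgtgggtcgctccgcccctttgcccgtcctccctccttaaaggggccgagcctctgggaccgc
Rap1gap: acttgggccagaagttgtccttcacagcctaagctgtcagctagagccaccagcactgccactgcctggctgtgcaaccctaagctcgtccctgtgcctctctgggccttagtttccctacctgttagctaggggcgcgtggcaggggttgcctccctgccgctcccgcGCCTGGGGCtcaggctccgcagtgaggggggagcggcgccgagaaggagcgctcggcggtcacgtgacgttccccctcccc
Hoxd8: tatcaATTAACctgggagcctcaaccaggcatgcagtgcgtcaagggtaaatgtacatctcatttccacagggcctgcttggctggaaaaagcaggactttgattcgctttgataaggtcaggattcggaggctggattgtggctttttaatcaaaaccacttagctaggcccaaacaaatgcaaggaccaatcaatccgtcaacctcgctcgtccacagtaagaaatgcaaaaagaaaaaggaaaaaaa

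The matches begin 150 bases before the start in Adh1, 160 in Mcrip2, 81 in Rap1gap and 245 in Hoxd8, where the motif reads on the opposite strand. The GATA motif was in 3 of 37 member promoters (8.11%), against 6.28% of 3136 promoters of genes measured on all 3 arrays and 10.3% of all 27025 genes in the table. The AP-2 motif was in 8 (21.6%), against 20.3% and 13.6%. The grainyhead-like motif was in 1 (2.70%, against 2.84% and 3.63%) and the HNF1 motif in 2 (5.41%, against 3.54% and 6.52%). These shares lay near those of the measured genes, and 23 of the 37 promoters held none of the 4 motifs. Median GC content was 58.4% for the members and 59.6% for the genes measured on all 3 arrays, above the 52% of the whole table. A match is a string of letters and does not show binding.

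The pair of arrays behind a member affected how many members there were. Among 2-array probes of arrays 2 and 3, 44 of 382 met the rule (11.5%). For arrays 1 and 3 the count was 7 of 498 (1.41%), and for arrays 1 and 2 it was 3 of 142 (2.11%). Probes measured on all 3 arrays gave like figures when only a pair was read. On arrays 2 and 3, 12% of the 4399 had both ratios above 0.41, on arrays 1 and 3 3.98%, and on arrays 1 and 2 3.32%. The members' share was thus near the background for arrays 2 and 3 and below it for the pairs with array 1. In the opposite direction, 101 of the 1022 probes (9.88%) had both ratios below -0.41, 94 of them on arrays 2 and 3 (24.6% of that pair, against 11.4% of the 3-array probes).

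Ratios of arrays 1 and 3 ran against each other in 2-array probes. The sign was opposite on the arrays measured for 64.5% of probes on arrays 1 and 3 (r = -0.29), 76.8% on arrays 1 and 2 (r = 0.72) and 13.4% on arrays 2 and 3 (r = 0.87). In 3-array probes the same shares were 54.4%, 59.9% and 13.6%. The 10 members with a value on array 1 (Cdh16, Bex2, Slc8a1, Hoxd8, Sprr2g, Rwdd2b, Cic, Ube2o and 2 unnamed probes) were therefore positive on an array that mostly ran apart from its partner. Among the 44 members of arrays 2 and 3, array 2 gave the higher ratio for 29 and array 3 for 15, and the median gap was 0.14.

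**Figure D3:**
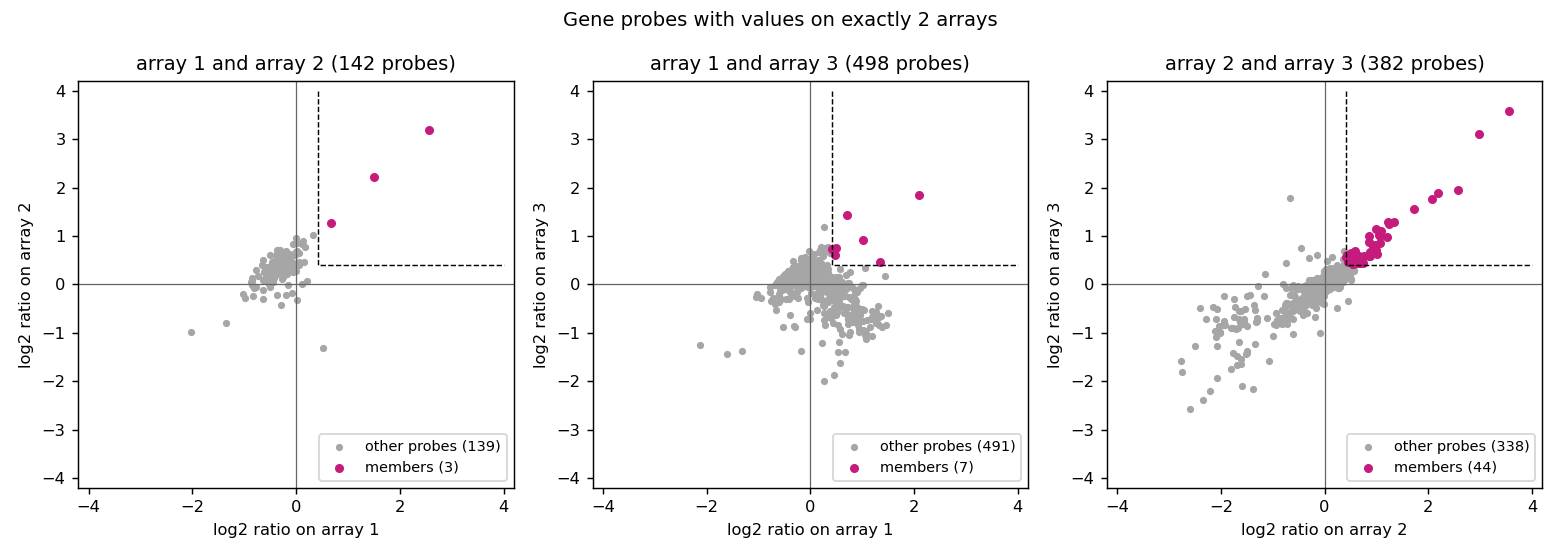
Log2 ratios of all 1022 gene probes measured on exactly 2 arrays, 1 panel for each pair of arrays, with members in pink inside the dashed corner where both ratios exceed 0.41. On arrays 2 and 3 the 44 members form the upper end of a diagonal cloud, whereas on arrays 1 and 3 most probes lie off the diagonal and 7 are members.

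What the missing array would have shown was not measured. Probes with all 3 values show how often a pair of high ratios came with a high ratio on the remaining array. Of 530 such probes above 0.41 on arrays 2 and 3, array 1 was positive for 67.9% and above 0.41 for 25.7%. The share depended on size. With a mean of arrays 2 and 3 between 0.41 and 1, array 1 exceeded 0.41 for 73 of 462 probes (15.8%), between 1 and 2 for 50 of 55, and above 2 for all 13, where its lowest ratio was 1.48. Of these groups, 10 of 462, 35 of 55 and 13 of 13 passed limma. The first size class corresponds to 30 of the 44 members of this pair, the second to 10 (Adgrg6, 0610040J01Rik, Irs2, Rap1gap, Dop1b, Bcam, Sema4a, 5033430I15Rik, Trp53inp2 and Pde4dip) and the third to Rprm, Esrp1, Slc35f2 and Adh1.

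For pairs with array 1, the remaining ratio of 3-array probes above 0.41 on the pair was nearly always positive. Such probes may differ from the members, whose missing ratio is not known from them. On arrays 1 and 3, r was 0.27 in 3-array probes and -0.29 in 2-array probes. On arrays 1 and 2 it was 0.076 and 0.72. Above 0.41 on arrays 1 and 3, array 2 was positive for 172 of 175 probes and above 0.41 for 136. Above 0.41 on arrays 1 and 2, array 3 was positive for 144 of 146 and above 0.41 for the same count of 136. In all, 136 of the 4399 probes exceeded 0.41 on every array, and 58 of these passed limma.

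**Figure D4:**
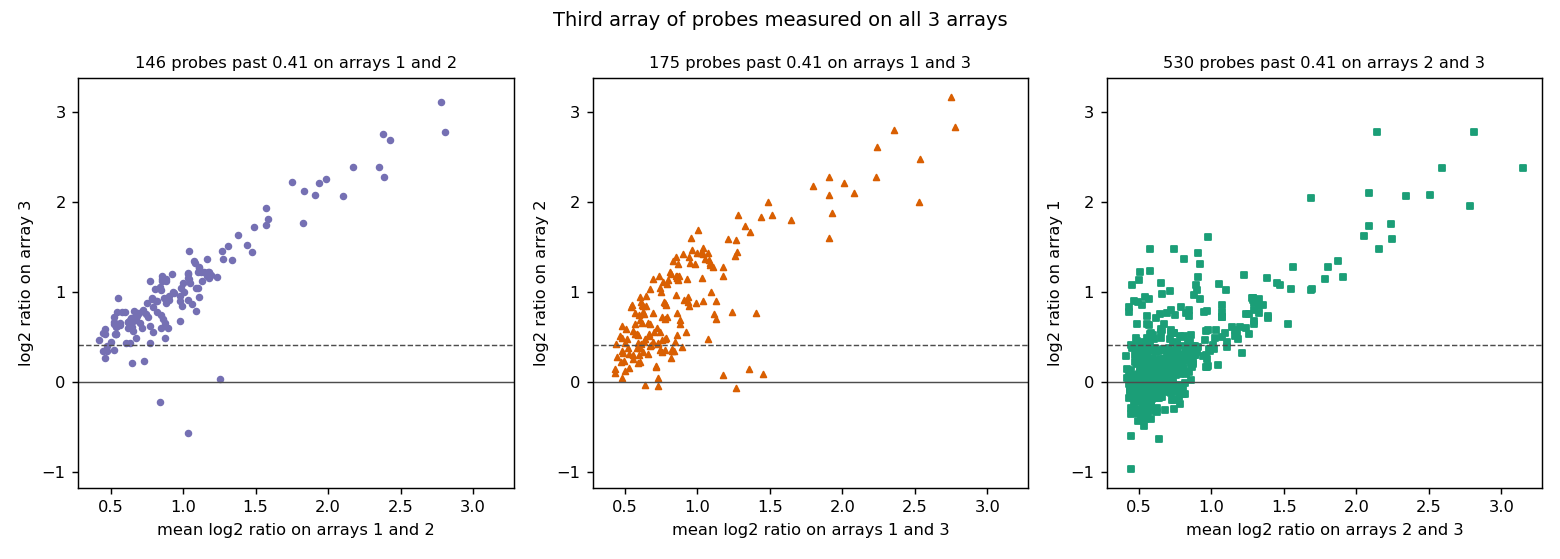
For probes measured on all 3 arrays with a pair of ratios above 0.41, the mean log2 ratio of that pair (x axis) against the log2 ratio on the remaining array (y axis), with 1 panel for each pair. The solid line marks 0 and the dashed line 0.41. Array 1 scatters around 0 where the mean of arrays 2 and 3 is below 1, and all 13 probes with a mean above 2 are above 0.41 on array 1.

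A check that the rule did not use is another probe of the same gene. Among member genes, 7 had 8 other probes on the array, and 7 of these probes (for Slc8a1, Adam22, Pde4dip, Parm1, Dop1b and Sp4) had no value on any array. Only Smc6 had another measured probe, listed under the same transcript. It gave 0.41 on array 1, -0.95 on array 2 and -0.65 on array 3, a mean of -0.40 ± 0.71 (SD, n = 3 arrays), which did not pass (limma adjusted p = 0.575). On arrays 2 and 3, where both Smc6 probes were measured, the member had 0.64 and 0.44 and the other probe the opposite sign. Without array 1 the other probe had -0.80 and passed (limma adjusted p = 0.00733). The direction for Smc6 therefore depends on the probe.

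Among marker genes of the ureteric side, few could have been members. Of 38 ureteric epithelium genes, 36 were on the array. Values were found on exactly 2 arrays for 2 of them, Esrp1 and Cdh16, and both were members, against 5.28% of all 1022 2-array probes. A further 9 had 3 values, and 5 of these rose by limma (Gata3, Krt8, Spint2, Prss8 and Kcnk1) with 0 fallen. Another 4 had a value on 1 array (Pax8, Krt7, Prom1 and Wnt7b), and 21 had none. In the ureteric tip list, Spry1 rose (0.95 ± 0.11; limma adjusted p = 0.0374) of 4 genes with 3 values, and the 1 gene with 2, Spred2, had -0.22 on array 1 and 0.31 on array 3. Of the collecting duct and urothelium genes, Fxyd4 rose as the only gene with 3 values, and Upk2, a urothelial plaque protein, had 0.46 and 0.064 on arrays 1 and 3. In the tight junction and desmosome list, Cldn7 and Cldn3 rose of 6 genes with 3 values. Cldn4, with 2, had -0.66 on array 2 and 1.78 on array 3, opposite signs on arrays that otherwise ran together. Over all 2-array probes, members made up 11.5% on arrays 2 and 3 (the pair of Esrp1) and 2.11% on arrays 1 and 2 (that of Cdh16). Over all 4399 probes with 3 values, 1.32% rose by limma.

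Marker lists of other kidney cells held 0 members. Their genes with 2 values were Aif1 of macrophages (-1.35 and -0.80 on arrays 1 and 2), Cdh5 of endothelium, the embryonic globin Hbb-y (-2.59 and -2.57 on arrays 2 and 3), Foxc2 of podocytes (-1.80 and -1.75), and the proximal tubule receptors Cubn (0.52 and 0.092) and Lrp2 (-0.041 and 0.062). None of these 6 had both ratios above 0.41. Of all 1022 2-array probes, 5.28% met the rule. By pair this was 11.5% on arrays 2 and 3, which measured all of these genes but Aif1, and 2.11% on arrays 1 and 2. With so few genes, 0 of 6 cannot be told apart from these shares. Among genes of these lists with 3 values, 0 of 8 cap mesenchyme, 0 of 8 stroma, 0 of 7 macrophage, 0 of 11 endothelium, 0 of 3 erythroid and 0 of 10 nephron genes rose. In the same order, 3, 6, 6, 0, 2 and 0 of them fell. Over all 4399 probes with 3 values, 1.32% rose and 1.55% fell.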

How the data were processed

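RNA of GFP+ and GFP- kidney cells was hybridised together on 3 two-colour oligonucleotide arrays of the Mouse Compugen design. Per the labels, images were read with Imagene 5.5, and ratios were Lowess-normalized (20% of points per smoothing window) through the control channel, whose lowest permitted value was 10. The deposited values are log2 ratios: 2 raised to the value was a whole number of thousandths (within 0.01 of a thousandth) for 99.97% of values. Titles call the table filtered, but no filter rule is stated. Signal over background, the dyes and the cause of missing values are not known, so why a member lacks 1 array was not tested.

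Controls and blanks were left out, and symbols were updated through gene identifiers to RefSeq of GRCm38.p6; 49 of 51 named members matched and 2 kept their older symbol. No gene coordinates are given, since no build is named for the array; promoter windows carry their own. For probes with 3 values, lmFit and eBayes of limma 3.58.1 (R 4.3.3) compared the mean with 0 (two-sided, Benjamini-Hochberg over 4399 probes). The code was run on simulated data with independent noise, equal for all probes and arrays and smaller than in these data. No simulated array stood apart as array 1 does, so that run does not check the test for these arrays. Members were chosen by their own ratios and had no test in the main fit. The alternative fit over probes with at least 2 values included them, so its counts are no check on the members. Members and lists were chosen with earlier results of these data known, and role groups and gene families after the members' names and values were seen. The rule for named genes took the 30 members of highest mean (without clone names), members in a marker list, the 5 probes on each side of the threshold, up to 6 members per role group, members with another measured probe, and ureteric-side list genes that passed or had 2 values. Members outside it, relatives, neighbours, markers of other cells and genes of 1 array were named after their values were seen. Alternatives were other thresholds, centring, scaling, quantile normalization, array weights, another variance, probes with at least 2 values, genes in place of probes and each array left out. The number of arrays limits the precision.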

Additional observations from a re-analysis of the deposited data

How the results depend on the processing

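The number of members was 31 at a threshold of 0.58 and 15 at 1, in place of 54. Centring gave 42, centring with scaling 47 and counting genes 51, all within 1.5 times. With array 1, 2 or 3 left out in turn, members of the remaining pair numbered between 3 and 44. By limma, 58 probes passed in the positive and 68 in the negative direction. These counts became 1597 and 1015 with array weights, and leaving out each array in turn gave between 23 (without array 3) and 1225 (without array 1) higher and between 60 (without array 3) and 810 (without array 1) lower. An ordinary one-sample statistic, which shares no variance between probes, gave 1 and 0 after adjustment. At an unadjusted p below 0.05 it gave 319 higher and 213 lower. Centring, quantile normalization and probes with at least 2 values kept both counts within 1.5 times. The last of these fits included the members, whose ratios the rule had used, so its counts say nothing about them. The other Smc6 probe had -0.69 with array weights, where it passed (limma adjusted p = 0.00034), and between -0.80 and -0.12 with each array left out. Over all its alternatives its limma adjusted p lay between 0.00034 and 1, and its mean stayed negative. The cause of these shifts was not tested. No paired analysis was possible because there is 1 group and no samples of another group share its array numbers; the pairing of GFP+ with GFP- cells is already in each array's ratio. The 2 ratios of a member give no more than a spread over 2 arrays.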

Other observations

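Probes measured on 1 array only held further high ratios, mostly on array 3, which had 908 such probes, against 140 on array 1 and 57 on array 2. Ratios above 0.41 made up 10.1%, 10% and 10.5% of these. Ratios below -0.41 were more frequent on each array, with 217 against 92 on array 3, 19 against 14 on array 1 and 12 against 6 on array 2. The highest positive ratios, all on array 3, were the glutathione transferase Gsta3 (2.96), the simple-epithelium keratin Krt7 (2.64), Golt1a (2.50) and the surface protein Plet1 (2.32). Trpv4, a cation channel, had 1.51, the sodium pump subunit Atp1b1 1.33, the ammonia transporter Rhcg 1.31 and the transcription factor Myb 1.26. These single values have no error and were named after they were seen.

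Members came more often from the extension set of the array's probes than measured probes did. It supplied 41 of the 54 members (75.9%), 59.1% of all 2-array probes, 51.9% of 3-array probes and 70.7% of probes with no value. Over all gene probes its share was 65.9%. These shares are a description and were not tested.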
